A study of Mus musculus with 2 samples.

Results

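The cells described here were islet cells with glucagon mRNA (Gcg) above the median level of non-endocrine cells and below the level of most α-cells, and with little mRNA of the other islet hormones. They were chosen by their hormone UMIs alone, a UMI being a molecular tag that marks 1 captured transcript. Of the 12900 barcodes in the files, 8926 passed the filter of more than 2500 detected genes and under 10% of UMIs from the mitochondrial genome. Of these 8926 cells, 496 held from 100 to under 1000 Gcg UMIs per 10000 UMIs, with under 300 for Ins1 and Ins2 together, under 40 for Sst and under 150 for Ppy. They are called low-Gcg cells, and the 1897 cells with 1000 Gcg UMIs or more within the same limits on the other hormones are called high-Gcg cells. Because Gcg and the other hormones chose the cells, their levels are given as a description.

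Islets were taken from mice aged 5 weeks. The control library, labelled wildtype, came from littermates without Cre, and the other from TBL/RβKO mice, in which Cre recombinase sits in the Ins1 gene and both Tbl1x and Tbl1xr1 are flanked by loxP sites. Each group gave 1 library of 150 islets pooled from 4 mice, cultured overnight before the cells were separated. The Ins1 promoter drives Cre in β-cells, so the deletion was not designed to reach α-cells. With 1 library per group there is no replicate spread and no test in what follows, and the 95% intervals (exact Poisson for levels, exact binomial for shares) cover counting error only.

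α-cells release glucagon when blood glucose falls, and glucagon makes the liver release glucose. They form proglucagon, which the convertase PC2 (Pcsk2) cuts to glucagon inside secretory granules, and they hold the transcription factors Irx1 and Irx2, which β-cells of adult mice lack or express weakly. Transthyretin (Ttr), a carrier protein for thyroid hormone, is an abundant α-cell transcript. The Gcg gene lies on chromosome 2, 62304873 to 62313997, and the Irx2 gene on chromosome 13, 72776906 to 72782317 (GRCm39, GENCODE annotation).

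There were 7067 barcodes with 241434108 UMIs in the control library, and 5833 with 185062206 for the library labelled TBL/RβKO. In insulin-defined cells (1000 or more insulin UMIs per 10000, Gcg under 100 and the same limits on Sst and Ppy; 2272 and 515 cells) Tbl1x had 196 CPM (192 to 199) in the control and 484 CPM (475 to 494) for the library labelled TBL/RβKO, and Tbl1xr1 39.9 CPM (38.4 to 41.5) and 181 CPM (175 to 187), where CPM are UMIs per 1000000 UMIs other than those of Gcg, Ins1, Ins2, Sst and Ppy (called non-hormone UMIs). RNA of the targeted genes was thus not lower under the label TBL/RβKO, and the label is used as a name. Reads of the 3′ end need not cover the deleted part, so they are no check of the deletion. Barcode sequences found in both libraries numbered 14, none of them a low-Gcg cell in both. Cells of immune, endothelial or stromal type, which should lack Gcg, had a median of 6.44 Gcg UMIs per 10000 in the control and 6.5 for the other library. Of these cells 10 of 170 (5.88%) and 19 of 302 (6.29%) reached 100, and their median UMIs were 23400 and 23028.

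The 496 low-Gcg cells were of 2 kinds, which differed in the share of their UMIs that came from cytosolic ribosomal protein genes (a share of non-hormone UMIs). In the control, 108 of 151 low-Gcg cells (71.5%, 63.6% to 78.6%) had a ribosomal share under 2%. In the library labelled TBL/RβKO it was 145 of 345 cells (42.0%, 36.8% to 47.4%). The limit of 2% was set after the data had been seen, and only 8 and 18 low-Gcg cells lay between 1% and 3%. Cells under the limit are called ribosomal-poor and the others ribosomal-rich. Such a low share was rare elsewhere, at 24 of 929 (2.58%) and 36 of 968 (3.72%) high-Gcg cells and 4.4% and 6.94% of all cells that passed the filter.

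**Figure D1:**
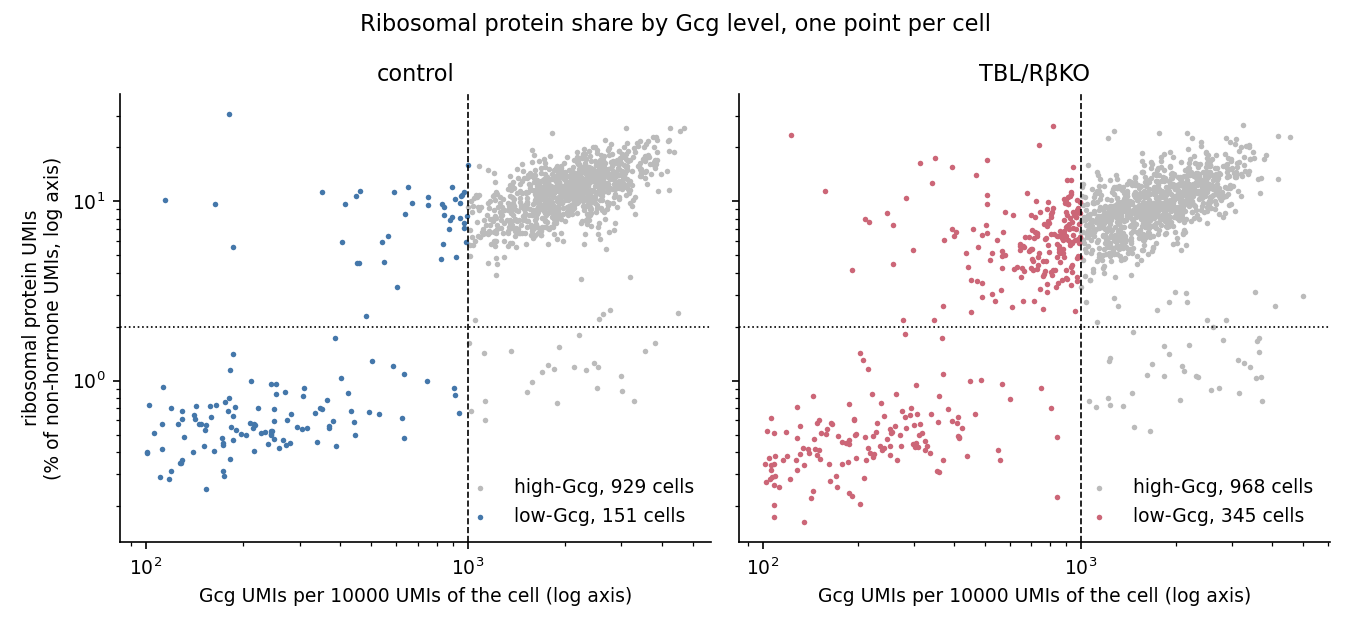
Ribosomal protein UMIs (% of non-hormone UMIs, vertical log axis) against Gcg UMIs per 10000 UMIs (horizontal log axis) in each library, 1 point per cell, with low-Gcg cells in colour and high-Gcg cells in grey. The dashed line marks the Gcg limit of 1000 and the dotted line the ribosomal share of 2%. A group of low-Gcg cells lies far below the dotted line in both libraries (108 and 145 cells), and the low-Gcg cells above it (43 and 200) continue the lower end of the high-Gcg cells.

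Ribosomal-poor low-Gcg cells had a median Gcg of 216 UMIs per 10000 in the control and 214 for the library labelled TBL/RβKO. Their median ribosomal share was 0.575% and 0.464%, against 11.6% and 9.52% in ribosomal-rich high-Gcg cells. They were shallow, with medians of 8153 and 9632 UMIs and 3045 and 3324 detected genes, where ribosomal-rich high-Gcg cells had 19965 and 19677 UMIs. Their mitochondrial share had a median of 7.72% and 7.67%, against 2.83% and 3.47%. Thinned to 4000 UMIs each, with no cell left out, they held 2028 and 2005 genes and the high-Gcg ribosomal-rich cells 2202 and 2220.

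Ribosomal-rich low-Gcg cells were nearer to the high-Gcg cells in depth, detected genes and mitochondrial share. Their median Gcg was 754 in the control and 784 for the library labelled TBL/RβKO. They had medians of 18576 and 17495 UMIs, 5134 and 4987 detected genes, a mitochondrial share of 3.24% and 3.8% and a ribosomal share of 8.44% and 6.14%. At 4000 UMIs they held 2231 and 2236 genes. Cells that also held markers of another class (at least 3 markers of a non-endocrine cell type, summing to 10 UMIs per 10000 or more) were all ribosomal-rich. They were 6 of 43 in the control (3 endothelial, 2 macrophage, 1 stromal) and 14 of 200 for the other library (8 ductal, 3 stromal, 2 B cell, 1 macrophage), and the gene values of ribosomal-rich cells below are given without them.

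The limits cut through continuous distributions. Just inside the upper Gcg limit (900 to 1000) lay 15 control cells and 52 of the library labelled TBL/RβKO, with median depths of 20851 and 15761 UMIs, and just outside it (1000 to 1100) 24 and 54 cells with 22944 and 19693 UMIs. Just inside the lower limit (100 to 120) lay 12 and 20 cells, with 8406 and 10356 UMIs, and just outside it (80 to 100) 9 and 24 cells with 8867 and 11502. Barcodes that met the hormone limits but failed the filter numbered 76 in the control, 74 of them ribosomal-poor, and 520 for the other library, 440 of them ribosomal-poor. How many ribosomal-poor cells count as members therefore depends on the filter. Another 322 and 465 cells that passed the filter had Gcg in the range but too much insulin, Sst or Ppy mRNA.

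Low-Gcg cells made up 14.0% (12.0% to 16.2%, 151 of 1080) of all low-Gcg and high-Gcg cells in the control and 26.3% (23.9% to 28.7%, 345 of 1313) for the library labelled TBL/RβKO, 12.3 percentage points more. The ribosomal-poor cells had almost the same share in both, at 10.0% (8.28% to 11.9%) and 11.0% (9.40% to 12.9%), 1.04 points apart. The ribosomal-rich cells made up 3.98% (2.90% to 5.33%) and 15.2% (13.3% to 17.3%), 11.3 points apart. Among cells that passed the filter, most of the difference between the libraries thus lay in the ribosomal-rich cells. This depends on the filter, which took out 74 ribosomal-poor barcodes within the hormone limits in the control and 440 under the label TBL/RβKO. Counted among ribosomal-rich cells alone, 43 of 948 (4.54%, 3.30% to 6.06%) and 200 of 1132 (17.7%, 15.5% to 20.0%) were low in Gcg. Over these same cells, low and high, the median Gcg was 2036 UMIs per 10000 (quartiles 1597 and 2562) in the control and 1552 (1143 and 2071) for the other library, so the whole distribution sat lower there and not its lower end alone. A share of UMIs cannot tell less Gcg RNA from more of other RNA, and with 1 library each the groups cannot be told apart from the libraries.

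**Figure D2:**
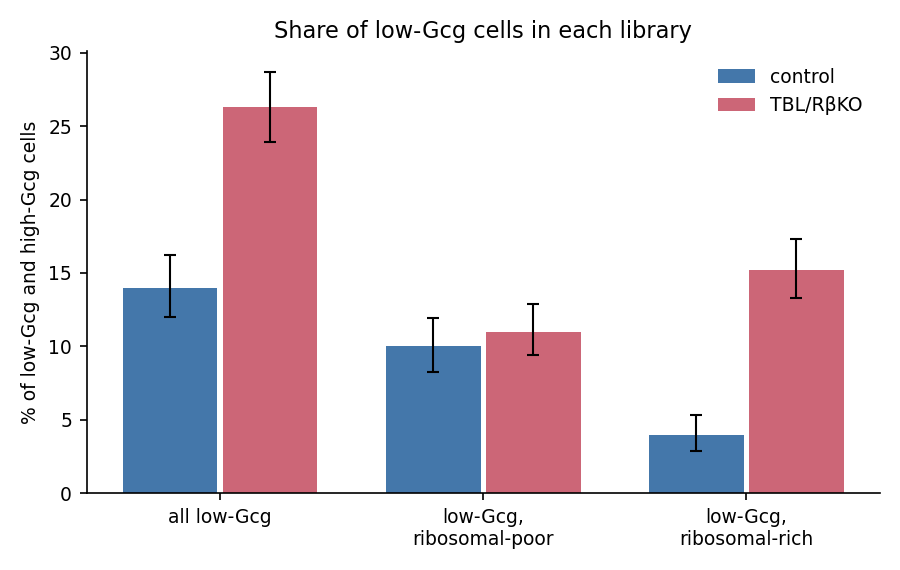
Low-Gcg cells as a percentage of all low-Gcg and high-Gcg cells in the control (blue) and for the library labelled TBL/RβKO (red), in all and split by ribosomal share, with 95% exact binomial intervals as bars. The ribosomal-poor bars stand at 10.0% and 11.0%, and the ribosomal-rich bars at 3.98% and 15.2%.

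Both kinds of low-Gcg cells held the α-cell transcription factors Irx1 and Irx2. Levels are CPM over the summed cells of a class, in the control and then for the library labelled TBL/RβKO, and were set beside those of insulin-defined cells. These CPM were not divided by transcript or gene length, and ratios between classes moved with gene span (below). Irx1 had 31.4 and 33.6 CPM in ribosomal-poor and 77.2 and 53.3 CPM in ribosomal-rich low-Gcg cells, against 0.626 and 0.502 CPM in insulin-defined cells, and Irx2 had 91.1 and 82.2 CPM and 104 and 106 CPM against 2.12 and 2.14 CPM. Slc7a2, a transporter of cationic amino acids, had 1790 and 1848 CPM in ribosomal-poor cells against 217 and 83.0 CPM. The genes of β-cells were low in turn. Pdx1, a regulator of the insulin gene, had 5.42 and 1.37 CPM in ribosomal-poor low-Gcg cells against 254 and 145 CPM in insulin-defined cells, and Nkx6-1 had 19.5 and 5.48 CPM against 431 and 214 CPM. Both kinds thus held these α-cell genes far above the insulin-defined cells, with few UMIs of Pdx1 and Nkx6-1. The marker Ttr stood well above the insulin-defined cells only in control ribosomal-rich cells, at 9264 CPM, and had 3795 CPM in those of the other library. Ribosomal-poor cells had 735 and 574 CPM of Ttr, near the 711 CPM of control insulin-defined cells and below the 3671 CPM of those in the other library.

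**Figure D3:**
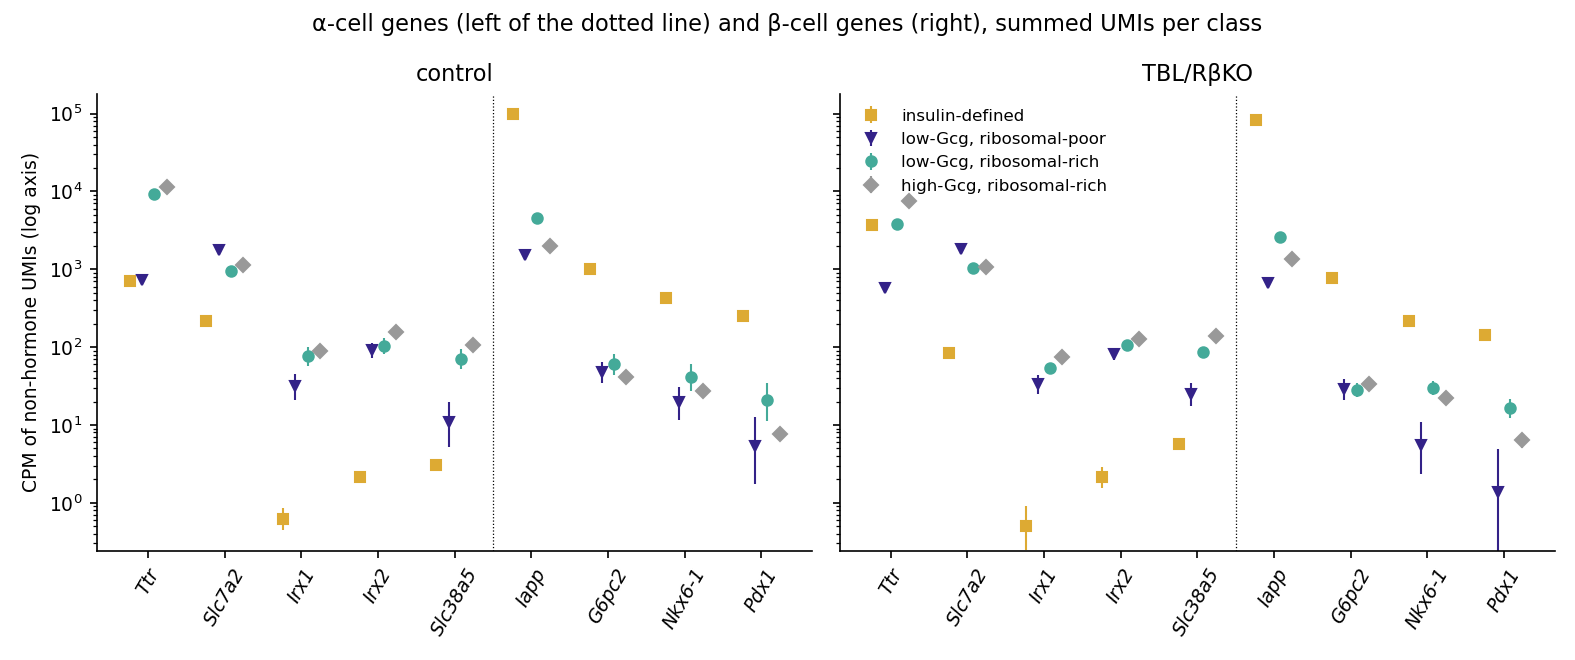
Level of 5 α-cell genes and 4 β-cell genes (CPM of non-hormone UMIs, log axis) in 4 classes of cells of each library, with 95% Poisson intervals as bars. Ribosomal-rich classes are without cells that held markers of other cell types. Irx1 and Irx2 of both low-Gcg classes stand well over the insulin-defined cells, and Ttr stands low in ribosomal-poor cells.

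Counted per cell at 4000 UMIs, Irx2 was found in 25.9% (18.0% to 35.2%) and 22.8% (16.2% to 30.5%) of ribosomal-poor low-Gcg cells, and in 43.5% and 46.2% before thinning. In immune, endothelial or stromal cells it was found in 2.35% (0.645% to 5.91%) and 0.993% (0.205% to 2.88%), and in 6.47% and 5.30% before thinning, so the level in the low-Gcg cells was above background. Among ribosomal-rich low-Gcg cells 27.9% (15.3% to 43.7%) and 28.0% (21.9% to 34.8%) had Irx2 at 4000 UMIs, and among ribosomal-rich high-Gcg cells 45.6% (42.4% to 48.9%) and 38.7% (35.6% to 41.9%). These shares were taken over all ribosomal-rich cells, marked cells included (43 and 200 low-Gcg, 905 and 932 high-Gcg cells). The intervals of the low-Gcg and high-Gcg cells overlap in the control, and only just fail to for the other library.

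To see what else differed, UMIs were summed over low-Gcg and over high-Gcg cells within each library, and the log2 ratio of the CPM of each gene was taken less the median over 9250 genes at 10 CPM or more. A gene counts as higher or lower here when it was past 1.5-fold the same way in both libraries. Over all low-Gcg cells 369 genes (3.99%) were higher and 1113 genes (12.0%) lower than in high-Gcg cells. On the scale of all UMIs, hormones included and without the centring, 1467 were higher and 406 lower, because less Gcg raises the share of everything else (the median moved to 0.33 and 0.23). These counts were the sum of 2 unlike patterns. Ribosomal-poor low-Gcg cells had 1837 genes (19.9%) higher and 2757 genes (29.8%) lower than ribosomal-rich high-Gcg cells. Ribosomal-rich low-Gcg cells had 119 genes (1.29%) higher and 64 genes (0.692%) lower, and without the cells that held markers of other cell types 113 (1.22%) and 86 (0.930%). The SD of the log2 ratio over genes was 1.35 and 1.36 for the ribosomal-poor cells, and 0.46 and 0.35 for the ribosomal-rich cells without marked cells. Clustering of cells was not used, but the limit of 2% and the Gcg limits chose both classes from the same UMIs, so these counts are descriptions.

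In ribosomal-poor low-Gcg cells, 81 of 82 ribosomal protein genes tested were lower in both libraries (median log2 ratio −4.32 in the control and −4.37 for the library labelled TBL/RβKO), as the split itself requires. Of the 13 protein-coding genes of the mitochondrial genome 11 were higher and none lower (0.96 and 0.72). mt-Nd6, which encodes a subunit of complex I and is the one coded on the opposite strand, had 212 and 212 CPM against 45.1 and 47.8 CPM. The shallow depth and the mitochondrial share moved with this class, and their part in its gene values was not tested. Whether these barcodes were intact cells, damaged cells or nuclei was not tested either, and the values of this class below are to be read with that.

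The genes of the α-cell itself split by kind. Of 14 transcription factors tested 8 were lower and 2 higher in ribosomal-poor cells, with list medians of −1.15 and −0.91, where 29.8% of all genes tested were lower and 19.9% higher. Irx1 had a log2 ratio of −1.51 (−2.09 to −0.98) and −1.17 (−1.61 to −0.75). Irx2 stood closer, at −0.80 (−1.13 to −0.48) and −0.66 (−0.93 to −0.39). Pou3f4, a POU-domain factor of α-cells, was nearly absent at 3.25 and 2.06 CPM (3 UMIs in each library) against 28.2 and 37.2 CPM, a log2 ratio of −3.14 (−5.43 to −1.59) and −4.19 (−6.47 to −2.63). Rfx6, a factor of the endocrine lineage, was higher at 613 and 571 CPM against 279 and 295 CPM, and Meis2 at 1482 and 1365 CPM against 796 and 881 CPM. Pax6, Isl1 and Nkx2-2, factors shared by islet cell types, were within 1.5-fold in both libraries.

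The secretory products were lower still in ribosomal-poor low-Gcg cells. Of 11 α-cell products 7 were lower and 3 higher (medians −1.21 and −1.43), and of 10 granins and granule membrane proteins 7 were lower and 2 higher (−1.67 and −1.64), beside 29.8% lower and 19.9% higher over all genes. Ttr had −3.97 (−4.08 to −3.86) and −3.71 (−3.81 to −3.62). Chromogranin A (Chga), which helps to form granules, had 1176 and 1158 CPM against 4340 and 3865 CPM, and Pcsk1n, an inhibitor of prohormone convertase, 474 and 406 CPM against 4346 and 3821 CPM. Some genes of the granule membrane went the other way. Ptprn2 had 5940 and 5932 CPM against 2401 and 2544 CPM, and Slc30a8, the zinc transporter of secretory granules, 4016 and 3668 CPM against 2315 and 1955 CPM. Pcsk2 itself, the convertase that makes glucagon, barely differed, at 8190 and 7154 CPM against 7181 and 7113 CPM, a log2 ratio of 0.16 (0.13 to 0.19) and 0.00. As ratios of this class moved with gene span (below), the part of span in these values was not tested.

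The high-Gcg cells hold a small ribosomal-poor class too, of 24 and 36 cells with median depths of 9944 and 10184 UMIs and median Gcg of 1906 and 2096. These cells shared the low levels of Fos (248 and 357 CPM) and Hspa8 (111 and 122 CPM). They did not share the low level of secretory mRNA, with 8421 and 7186 CPM of Ttr, 7813 and 6892 CPM of Chga and 3175 and 3453 CPM of Pcsk1n. The Gcg limit chose these cells, and across all high-Gcg cells Gcg moved with Ttr (Spearman's rho 0.443 and 0.399). Their secretory mRNA is therefore a description, and cannot show whether it goes with the ribosomal share.

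Stress and signalling genes were low as whole lists in ribosomal-poor low-Gcg cells. Of 8 heat shock genes 7 were lower and none higher (medians −2.12 and −2.47), among them Hspa8, a constitutive chaperone, at 82.4 and 74.7 CPM against 763 and 747 CPM. Of 15 genes of endoplasmic reticulum stress 14 were lower (−1.66 and −1.75), of 14 immediate early genes 10 (−1.87 and −2.32), of 11 genes of p53 and apoptosis 8 (−1.71 and −1.81) and of 9 genes of antigen presentation 7 (−2.19 and −2.16), with none higher in both libraries. Fos, an early response factor, had 152 and 159 CPM against 1588 and 1457 CPM. Atf3, another stress-induced factor, stood apart at 232 and 233 CPM against 190 and 163 CPM. Over all genes tested 29.8% were lower, as given above. Ratios of this class also moved with gene span (below), and genes of up to 11.6 kb had medians of −1.92 and −2.03. The part of span in these list values was not tested.

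Ion channels and glucose sensing genes stood high as a list, with 6 of 11 higher and 1 lower (1.08 and 0.80). The calcium channel subunits Cacna1c (1403 and 1611 CPM against 556 and 670 CPM), Cacna1d (1015 and 1102 CPM against 425 and 501 CPM) and Cacna1a (678 and 762 CPM against 313 and 369 CPM) were higher. Kcnj11, the pore of the ATP-sensitive potassium channel, was the lower member, at 10.8 and 5.48 CPM against 61.0 and 57.3 CPM. Its partner Abcc8 had 933 and 775 CPM against 613 and 582 CPM. Among all genes of 88.9 kb or more this class had medians of 0.87 and 0.80 (below). The part of span in the channel values was not tested. Of 13 exocytosis genes 4 were higher and 2 lower (0.14 and 0.39), of 9 receptors 1 and 4 (−0.49 and −0.59), of 7 amino acid transporters 1 and 2 (0.39 and 0.40), and of 5 genes of prohormone processing 0 and 3 (−1.34 and −1.29). Over all genes 19.9% were higher and 29.8% lower, and several of these small lists lay near that. On the scale of all UMIs the amino acid transporters had 4 higher and 1 lower in the control and 4 and 2 for the other library, and the receptors 3 and 3, and 2 and 4, so these counts rest on the scaling.

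**Figure D4:**
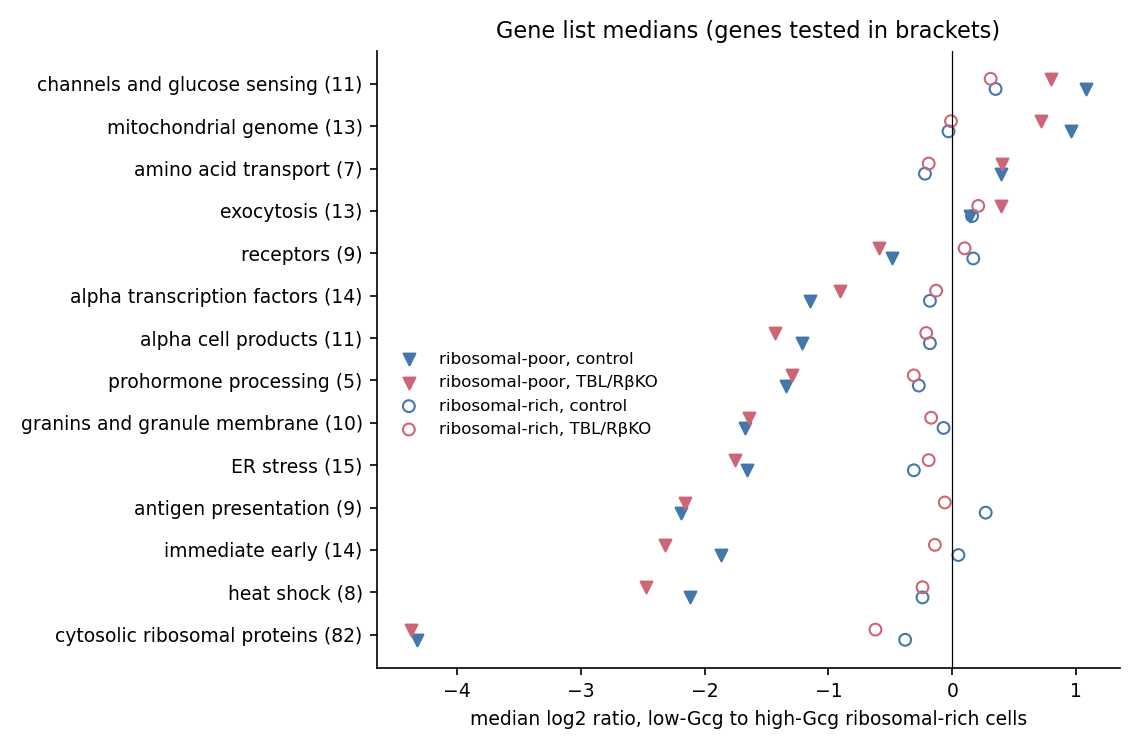
Median log2 ratio of low-Gcg to ribosomal-rich high-Gcg cells for 14 gene lists (number of genes tested in brackets), for ribosomal-poor cells (filled triangles) and ribosomal-rich cells without cells holding markers of other types (open circles), in the control (blue) and for the library labelled TBL/RβKO (red). Ribosomal-poor medians run from −4.37 to 1.08, and ribosomal-rich medians lie between −0.62 and 0.35.

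Over all genes tested, the ratio moved with the span of the gene, from the first to the last base of its annotation. The 1837 genes higher in ribosomal-poor low-Gcg cells had a median span of 121 kb and the 2757 lower ones 10.6 kb, against 31.4 kb over the genes tested. By 5 equal classes of span the median log2 ratio climbed from −1.92 and −2.03 in genes of up to 11.6 kb to 0.87 and 0.80 in genes of 88.9 kb or more. Ribosomal-rich low-Gcg cells showed the same order at a smaller size, from −0.22 and −0.32 to 0.19 and 0.26. The genes ranked highest in ribosomal-poor cells (by the smaller log2 ratio of both libraries, at 20 CPM or more) were mt-Nd6 and the nuclear genes Lrrc4, Cadm2, Lrrtm4, Prickle2, Edil3, Klf8, Bach2, Npas3 and Fbxl7. Lrrc4, a synaptic adhesion gene, had log2 ratios of 2.00 and 1.99 with a UMI in 53.7% and 59.3% of the cells, so it did not come from a few of them. The lowest were Bola2, Psmb10, Naa38, Tmsb15b2, Krt10, Pigyl, C1qtnf4, Uqcr10, Rplp1 and Rpl7. Several of these had 1 to 3 UMIs in ribosomal-poor control cells, as Bola2 with 2 (log2 ratio −5.47, −8.52 to −3.62). Uqcr10, a subunit of complex III, had 8.67 and 6.85 CPM against 243 and 198 CPM, a log2 ratio of −4.84 (−6.05 to −3.86) and −4.86 (−5.92 to −3.98). Tmsb15b2 has a near-identical neighbour, Tmsb15b1, and its value is uncertain for that reason.

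**Figure D5:**
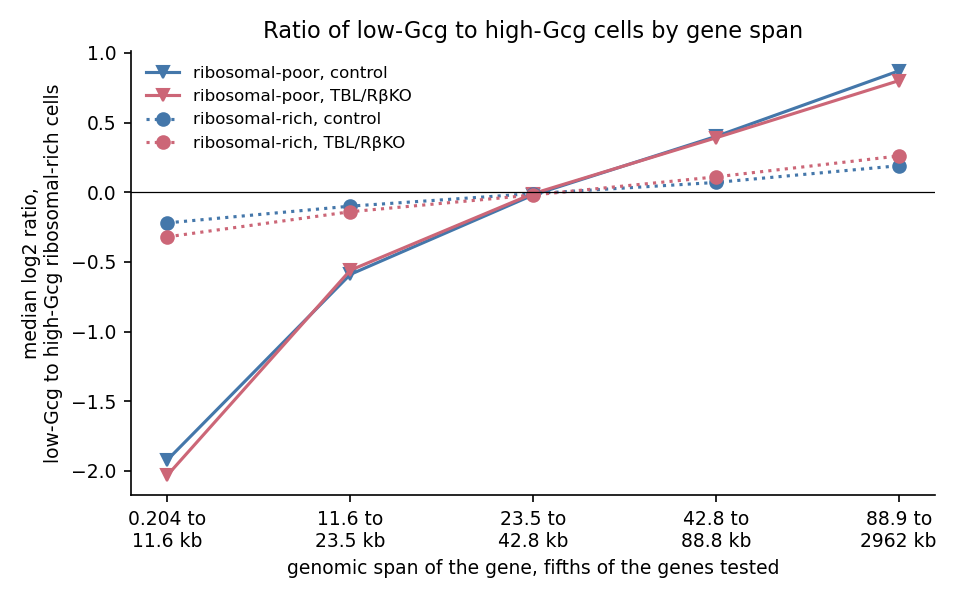
Median log2 ratio of low-Gcg to ribosomal-rich high-Gcg cells by 5 equal classes of the genomic span of the genes tested (kb), for ribosomal-poor cells (solid lines) and ribosomal-rich cells without marked cells (dotted lines) in each library. Ribosomal-poor lines climb from −1.92 and −2.03 to 0.87 and 0.80, and ribosomal-rich lines from −0.22 and −0.32 to 0.19 and 0.26.

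Ribosomal-rich low-Gcg cells differed less from high-Gcg cells in α-cell genes than the ribosomal-poor cells did. The 14 transcription factors had medians of −0.18 and −0.13, and none was higher in both libraries. Irx2 had −0.59 (−0.96 to −0.25) and −0.30 (−0.47 to −0.14), past 1.5-fold only in the control. Rfx6 was at 413 and 374 CPM against 280 and 295 CPM. Of 11 α-cell products only Cryba2, a crystallin gene expressed in islets, was lower in both libraries, at 125 and 121 CPM against 250 and 243 CPM, with a UMI in 81.1% and 76.3% of cells. Ttr had 9264 and 3795 CPM against 11275 and 7497 CPM, so its log2 ratio was −0.29 (−0.33 to −0.26) in the control and −1.0 (−1.03 to −0.97) for the library labelled TBL/RβKO. Without the cell that held most Ttr in each library these ratios became −0.53 and −1.07, so part of the contrast came from 1 control cell. On the scale of all UMIs the medians of transcription factors turned to 0.07 in both libraries and that of α-cell products to 0.06 in the control, so their sign rests on the scaling.

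Granule genes of ribosomal-rich low-Gcg cells differed one by one. Vgf and Resp18, both of the secretory granule, were lower in both libraries (Resp18 at 1885 and 1302 CPM against 2936 and 2243 CPM, Vgf at 37.1 and 22.3 CPM against 57.9 and 47.0 CPM). On the scale of all UMIs no gene of the 10 in the granin list was past 1.5-fold lower in the control, where 2 were higher, and the list medians turned from −0.07 and −0.17 to 0.18 and 0.04, so both calls rest on the scaling in the control. Chromogranin B (Chgb) was higher at 1158 and 1172 CPM against 665 and 701 CPM, but 17.8% and 35.3% of its UMIs came from 1 cell, and without that cell its log2 ratio of 0.79 and 0.72 became 0.65 and 0.11. Iapp, a peptide made mainly by β-cells, was higher too, at 4621 and 2585 CPM against 1996 and 1342 CPM, and without the cell that held most of it 1.20 and 0.93 became 0.85 and 0.37. Chga and Scg2 were within 1.5-fold in both libraries. Pdx1, another β-cell gene, had 20.8 and 16.5 CPM against 7.54 and 6.32 CPM, well under the 254 and 145 CPM of insulin-defined cells. Of 5 β-cell genes tested 1 was higher in both libraries and none lower, where 1.22% of all genes were higher. The list medians were 0.56 and 0.40, and 0.27 and 0.18 with each cell weighing the same.

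None of the 14 immediate early genes and 8 heat shock genes was past 1.5-fold in both libraries in ribosomal-rich low-Gcg cells, and 1 of 15 genes of endoplasmic reticulum stress was lower. The list medians were 0.05 and −0.14, −0.24 and −0.24, and −0.31 and −0.19. Of the 82 ribosomal protein genes 1 was lower in both libraries, 2 in the control and 61 for the library labelled TBL/RβKO (medians −0.38 and −0.62). On the scale of all UMIs none was lower in the control and 2 for the other library (−0.14 and −0.42), so the count of 61 rests on the scaling. The 13 mitochondrial genes stood at −0.03 and −0.01, and of the 11 channel genes none was past 1.5-fold in both (0.35 and 0.31), but on the scale of all UMIs 6 were higher in the control and 5 for the other library (0.60 and 0.51). These counts sat beside 1.22% and 0.930% of genes called. On the scale of all UMIs the mitochondrial median turned to 0.22 and 0.19, and in the library labelled TBL/RβKO the immediate early genes turned to 0.06 and the genes of endoplasmic reticulum stress to 0.01, so the sign of these small medians rests on the scaling as well.

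The genes ranked highest in ribosomal-rich low-Gcg cells were Sez6l, Defb1, Chrm3, Galnt14, Trpm3, Kcnip1, Hadh, Fam163a, Ptprm and Dscam. Chrm3, the muscarinic acetylcholine receptor M3, had 153 and 200 CPM against 52.1 and 73.8 CPM, and a UMI in 59.5% and 45.2% of the cells against 32.3% and 28.3% of high-Gcg cells. Its log2 ratio was 1.54 (1.23 to 1.84) and 1.42 (1.28 to 1.56), and 1.03 and 1.37 without the cell that held most of it. Sez6l, a membrane gene of neurons and endocrine cells, had 87.6 and 204 CPM against 22.0 and 60 CPM, and 1.98 and 1.75 became 1.06 and 1.62. Trpm3, a calcium-permeable channel, had 95 and 115 CPM against 23 and 44.4 CPM, and 2.04 and 1.36 became 1.18 and 1.20. Hadh, an enzyme of fatty acid oxidation, had 62.3 and 56.6 CPM against 22.4 and 22.6 CPM, and a UMI in 37.8% and 25.3% of the cells against 29.8% and 25.5%. In Hadh the cells with a UMI were about as frequent as among high-Gcg cells in the library labelled TBL/RβKO, and the difference lay in cells with many. Kcnip1 and Dscam in the control fell to 0.38 and 0.08 without 1 cell, where the other library kept 1.66 and 1.31.

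The lowest were Peg10, Cryba2, A2ml1, H2ax, Timp2, Lrrtm3, Smim15, Slc37a4, Slc16a11 and Mfap2. Several rested on few UMIs in the control, as Smim15 with 6, H2ax with 8, and Slc37a4 and Timp2 with 9 each. Lrrtm3 had 19 there, and without the cell that held most of it −0.91 became −3.11. Peg10, an imprinted gene derived from a retrotransposon, had 31.2 and 31.5 CPM against 69.5 and 69.3 CPM, a log2 ratio of −1.17 (−1.87 to −0.55) and −1.15 (−1.46 to −0.86). A2ml1, a protease inhibitor, had 38.6 and 34.6 CPM against 74.8 and 68.8 CPM. Of these 10 genes Lrrtm3 was the exception in direction, with log2 ratios of 1.00 and 1.09 in ribosomal-poor cells and −0.91 and −0.97 in ribosomal-rich cells.

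Ranked over all low-Gcg cells together, the list was led by genes of other cell types. Cd74, the invariant chain of antigen-presenting cells, had log2 ratios of 5.53 and 4.76, but only 6 of 151 and 11 of 345 cells held a UMI of it, and 1 cell gave 61.0% and 88.4% of its UMIs. Sparc, Lgals3, Apoe, Pmepa1 and Vim followed, and 1 cell gave 61.7% and 68.3% of the UMIs of Apoe. Without the cells that held markers of other classes Apoe turned to −0.62 and −0.90. The next genes, Sez6l, Trpm3, Fam163a and Pcdh9, were spread over more cells, with log2 ratios of 1.08 to 1.72 over both libraries. For these 4 genes 1 cell gave at most 29.9% of the UMIs in the control and 12.5% for the other library. The 10 lowest, Fxyd3, Tmsb15b1, Ttr, Vgf, A2ml1, Tmsb15b2, Cryba2, Nudt11, Resp18 and H2ax, were below the high-Gcg cells in both kinds of low-Gcg cell in both libraries. Macrophage markers summed to 433 CPM and 70.4 CPM in low-Gcg cells and 37.2 CPM and 19.6 CPM in high-Gcg cells, and endothelial markers to 401 and 9.05 CPM against 13.3 and 6.72 CPM.

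The library labelled TBL/RβKO was then set against the control within each kind of cell, over 9270 genes. Over all low-Gcg cells 482 genes (5.20%) were past 1.5-fold higher and 379 genes (4.09%) lower. Within ribosomal-poor cells it was 893 (9.63%) and 909 (9.81%), and within ribosomal-rich cells without marked cells 874 (9.43%) and 783 (8.45%). High-Gcg ribosomal-rich cells, of far more UMIs, had 156 (1.68%) and 85 (0.917%). The low-Gcg classes held 37 to 186 cells and these high-Gcg classes 905 and 932, so the counts are not comparable between them, and the number of genes that differ between the genotypes cannot be read from them.

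The genes ranked highest and lowest over all low-Gcg cells were Timp1, Cxcl14, Col3a1, Bnip5, Col5a2, Cntnap5c, Col1a1 and Col1a2, and Flt1, Igfbp3, Esm1, Emcn, Ednrb, Igfbp5, Thbs1 and Ctss. Most are genes of stromal, endothelial or immune cells. Flt1, a receptor of endothelial cells, had 225 UMIs in the control, 79.1% of them in 1 cell, and 2 in the other library. Within cells free of such markers, Dscam, a neuronal adhesion gene, had 16.3 and 76.7 CPM in ribosomal-poor, 19.3 and 101 CPM in ribosomal-rich and 9.25 and 37.7 CPM in high-Gcg cells. Its log2 ratio was thus 2.25 (1.47 to 3.14), 2.36 (1.56 to 3.28) and, in ribosomal-rich high-Gcg cells, 2.00. Kcnip4, a potassium channel-interacting protein, was lower in the library labelled TBL/RβKO in each class, at 2715 and 1417 CPM, 2334 and 715 CPM, and 1179 and 814 CPM in the same order. Calb1, a calcium-binding protein, had 45.5 and 21.2 CPM, 189 and 70.1 CPM, and 172 and 111 CPM. Gast, Spock2, Kcnd2, Kirrel3, Limch1 and Nrg3 ranked high and Cdh9 and Frmpd4 low in the ribosomal-rich cells. Spock2 and Nrg3 had only 11 and 5 UMIs in the control. In the library labelled TBL/RβKO 1 cell weighed on the log2 ratio to high-Gcg cells. Without it Spock2 fell from 1.80 to 0.97, Nrg3 from 0.65 to 0.17 and Kcnd2 from 1.65 to 1.22. Some of the lowest, S100a6, Cryab, Vim and Lgals3, came from 1 control cell each, which gave 99.3% to 100% of their UMIs.

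In ribosomal-poor cells Irx2 had a log2 ratio of −0.13 (−0.55 to 0.29) and the transporter Slc7a2 0.06 (−0.03 to 0.15). In ribosomal-rich cells Irx2 had −0.01 (−0.39 to 0.38) and Slc7a2 0.08 (−0.05 to 0.20). None of the 14 transcription factors was past 1.5-fold in ribosomal-rich cells and 1 was lower in ribosomal-poor cells, where over all genes 9.43% were higher and 8.45% lower in ribosomal-rich and 9.63% and 9.81% in ribosomal-poor cells. So few genes cannot be told from that share. Ttr was lower, at −0.34 (−0.49 to −0.19) in ribosomal-poor and −1.33 (−1.37 to −1.28) in ribosomal-rich cells, and at −0.62 in high-Gcg ribosomal-rich cells. Part of the −1.33 came from 1 control cell that held much Ttr (above). Iapp was lower in each class as well, at −1.20, −0.88 and −0.61, and so was Mafa, a β-cell factor, with 26.7 and 1.53 CPM in ribosomal-rich low-Gcg and 25.8 and 0.838 CPM in high-Gcg cells. β-cell genes in α-cells can be free RNA, and insulin mRNA in immune, endothelial or stromal cells had a median of 85.2 UMIs per 10000 in the control and 14.6 for the other library. The part of free RNA in these differences was not tested.

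The targeted genes did not differ between the libraries in ribosomal-poor low-Gcg cells beyond counting error. Tbl1x (chromosome X, 76554141 to 76706597, GRCm39) had 556 and 545 CPM, a log2 ratio of −0.01 (−0.18 to 0.15), and Tbl1xr1 (chromosome 3, 22129947 to 22270770) 91.1 and 88.4 CPM, or −0.03 (−0.44 to 0.39). In ribosomal-rich cells Tbl1x had 303 and 416 CPM, 0.42 (0.21 to 0.64), and Tbl1xr1 66.8 and 90.6 CPM, 0.40 (−0.05 to 0.89). Both genes were thus not lower in the library labelled TBL/RβKO. Cre RNA was nearly absent from low-Gcg cells, with 2 UMIs in 2 of 345 cells of the library labelled TBL/RβKO. None was found in the 151 control cells, which allows up to 1.56 CPM. High-Gcg cells of the same library held 8 UMIs in 7 of 968 cells, where all cells that passed the filter held 3170.

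Within the low-Gcg cells Gcg followed Ttr only loosely once the kinds were apart. Gcg was taken per 10000 UMIs and Ttr per 10000 non-hormone UMIs. Over all low-Gcg cells their Spearman's rho across cells was 0.611 in the control (n = 151) and 0.628 for the library labelled TBL/RβKO (n = 345). For Gcg and the ribosomal share it was 0.642 and 0.718. Within ribosomal-poor cells Gcg and Ttr had 0.324 (n = 108) and 0.331 (n = 145), and within ribosomal-rich cells 0.113 (n = 43) and 0.0353 (n = 200). These values share the depth of each cell and the limits on Gcg, which cut the range short. Free RNA was estimated by taking all Ins2 of a class as free RNA with the profile of the library's summed barcodes. It came to 4.27% and 1.65% of the UMIs of ribosomal-poor and 2.39% and 2.00% of ribosomal-rich low-Gcg cells. In high-Gcg cells it came to 2.69% and 1.48%. The limit on insulin chose all these cells, and the profile of free RNA itself was not measured, so these values are rough and no upper bound.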

How the data were processed

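Single-cell RNA sequencing libraries (Chromium 3′ chemistry, version 3.1) of 2 pools of islets were analysed, 1 per group. Raw UMI counts by gene and barcode are what the authors deposited, and the submitters' processing notes name Cell Ranger 7.1.0 and GRCm39 (mm39). The study also limited cells to under 6000 genes and removed free RNA and doublets. Here no upper limit was set and neither was removed, and each was tried as an alternative. Depth was 241434108 and 185062206 UMIs. No column of another sample was present.

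Python 3.11.15 with NumPy 2.4.6, SciPy 1.17.1 and pandas 2.3.3 was used, and doublets were scored with Scrublet in Scanpy 1.11.5, the highest scores being marked at 0.8% per 1000 barcodes (7 low-Gcg cells in each library). UMIs were summed per library and class and divided by those of genes other than the 5 hormone genes. Genes at 10 CPM or more were compared, and log2 ratios were taken less their median over genes. Intervals are at 95% and a count of 0 was put at 3 counts as a bound. The steps were tested on simulated counts. Gene span came from the GENCODE mouse annotation by Ensembl identifier (9249 of 9250 genes).

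The text names the markers and targeted genes, members of the gene lists, and the genes ranked highest and lowest by log2 ratio (10 each way between low-Gcg and high-Gcg cells, 8 each way between libraries). The members and lists were chosen with earlier results of these data known. The ribosomal limit of 2% and the values without the cell that held most of a gene were added after the data had been seen. A list of nuclear RNAs was not used, as 1 of its genes was in the tables. No test was run, since each group had 1 library. Some items are not reported here.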

Additional observations from a re-analysis of the deposited data

Results flagged for a closer look

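One signal lay outside the main measurement. In the low-Gcg cells of the library labelled TBL/RβKO the added Cre sequence had 2 UMIs on the plus strand, in 2 of 345 cells, where the control had 0. Among all 4179 cells of that library that passed the filter there were 3170 such UMIs in 306 cells.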

How the results depend on the processing

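No paired analysis was possible because each group had 1 library, and no replicate could be left out. The share of low-Gcg cells among low-Gcg and high-Gcg cells moved from 14.0% in the control and 26.3% for the library labelled TBL/RβKO to 4.98% and 17.5% with a mitochondrial share under 5%, 6.91% and 19.1% from a Gcg of 300, 7.23% and 23% at 10000 to 30000 UMIs, 4.54% and 17.7% in ribosomal-rich cells and 3.97% and 16.9% without marked cells too, and was higher in the library labelled TBL/RβKO each time. The genes higher in low-Gcg than high-Gcg cells numbered 675 under 6000 detected genes, 752 with each cell weighing the same and 70 at 50 CPM or more. The counts of higher and lower genes were 125 and 99 with a mitochondrial share under 5%, 123 and 351 from a Gcg of 300, 1467 and 406 over all UMIs, 33 and 114 at 2-fold, 119 and 64 in ribosomal-rich cells, and 113 and 86 without marked cells too, and 1771 genes were lower with each cell weighing the same. Between libraries 733 genes were higher under 6000 genes and 586 lower from a Gcg of 300. The counts higher and lower were 833 and 884 with a mitochondrial share under 5%, 101 and 58 at 50 CPM, 125 and 119 at 2-fold, 792 and 783 in ribosomal-rich cells, and 874 and 783 without marked cells too. The cause was not tested.

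Of 1023 values of 93 named results past 1.5-fold, 36 changed sign. Between low-Gcg and high-Gcg cells of the control, Apoe became −0.99 under 6000 genes, −0.62 without marked cells, −0.98 without doublet scores and −0.92 at 10000 to 30000 UMIs. Cd74 became −1.94, −0.09 and −2.27 under 6000 genes, without doublet scores and at those depths. Fos became 0.15 and Chga 0.17 in ribosomal-rich unmarked cells. In the library labelled TBL/RβKO, Hadh became −0.45 under 6000 genes and −0.18 at those depths, and without marked cells, then in ribosomal-rich unmarked cells, Apoe became −0.90 and −0.61, Sparc −0.58 and −0.30, and Cd74 −0.57 and −0.82. Between libraries, in the same order, Col3a1 became −2.19 and −2.32, Timp1 −0.02 and −0.58, Col1a2 −0.19 and −0.63, Col1a1 −3.77 and −4.32, and Cxcl14 −1.60 and −2.32. Col5a2 became −0.71 and −1.25 and Col1a1 −0.03 and −0.57 under 6000 genes and at 10000 to 30000 UMIs. Thbs1 became 0.51 without marked cells. Ctss became 3.76 under 6000 genes, 0.40 without marked cells, 3.64 without doublet scores and 1.64 at 10000 to 30000 UMIs. Values with no UMI in a class were set at 3 counts.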
